A study of Emiliania huxleyi with 18 samples.

Results

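Late-rising genes were genes of the alga Emiliania huxleyi whose transcripts held their level from day 7 to day 10 of culture without UV and then at least doubled by day 13. Their time course was judged in the control libraries, while the minimum level counted the libraries of both arms. Among genes with at least 500 unique molecular identifiers (UMIs) over all libraries, the mean log2 level of the 3 control libraries had to change by less than 0.5 from day 7 to day 10 and to rise by 1 or more on the log2 scale from day 10 to day 13. More than 10 UMIs were also required over the control day 7 libraries. Of 41734 genes in the deposited matrix, 14399 reached 500 UMIs and 127 met every condition. Levels are CPM, the UMIs of a gene relative to the total of its library on a fixed common scale, with each total scaled by edgeR's trimmed mean of M-values method (TMM).

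The libraries came from axenic cultures of E. huxleyi strain CCMP3266, a single strain grown in artificial sea water with L1 nutrients without silicate, in 50 ml standing cultures started at 330 cells per ml. All groups shared 18 °C and 16 h of light at 130 µmol photons per m2 per s with 8 h of dark. Control cultures received this light alone, and UV cultures also received a reptile UV lamp for 14 h each day, with intensities in W per m2 of 0.5 for UV-A, 0.07 for UV-B and 0.026 for UV-C. Each arm was harvested on days 7, 10 and 13 with 3 libraries per group, 18 in all, and the labels call the replicates triplicates without naming separate flasks, so p-values measure the spread between these libraries.

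E. huxleyi is a coccolithophore, a single-celled haptophyte alga that covers itself with plates of calcium carbonate and forms large ocean blooms. In a closed culture its cells divide until nutrients or light run short and then stop dividing, and transcripts change as the culture ages. The files do not pair the gene identifiers with names or descriptions, and none matched the reference gene table, so no function is given to any gene, no pathway list was counted, and the identity of the alga was not checked against marker genes.

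UMI totals were 1060640 to 9216603 per library. Replicates 1 and 2 of day 10 in both arms were shallow (1124600 to 1699470 UMIs) and gave 0.870 to 0.876 UMIs per read, while the remaining 14 libraries gave 0.700 to 0.795. UV day 7 replicate 1 had the lowest total (1060640 UMIs). No label names a batch. The main counts that rest on day 10 are therefore also given with the shallow or with the deep day 10 libraries alone, but counts of separated libraries are not. UMIs per read also moved with the day, from 0.700 to 0.735 on day 7 to 0.770 to 0.795 on day 13, and this cannot be told apart from culture age.

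The control arm shows how the rule picked the genes, so its values are a description without a test. The median change over the 127 genes was -0.02 from day 7 to day 10 and 1.33 from day 10 to day 13 on the log2 scale, with a range of 1.00 to 4.16 for the later step. Of the 127 genes, 15 rose by 2 or more on that scale. Together they held 0.197% ± 0.0129 of all UMIs on day 7, 0.225% ± 0.0192 on day 10 and 0.668% ± 0.0443 on day 13 (SD, n = 3 each). In bulk libraries such as these, a change in the share of cells that make a transcript and a change in the amount per cell cannot be told apart.

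The largest control rise was that of G10667. It stood at 0.592, 1.32 and 1.07 CPM in control replicates 1, 2 and 3 on day 7. On day 10 it stood at 1.82, 1.34 and 1.11 CPM, and on day 13 at 34.0, 32.1 and 31.3 CPM. The day 13 libraries were close together and far above the 6 earlier ones. G35457 followed, with 1.58, 1.76 and 1.60 CPM in the day 7 replicates, 0, 1.34 and 4.02 CPM in those of day 10 and 13.3, 16.6 and 24.1 CPM in those of day 13. Its day 10 values rested on 0, 2 and 29 UMIs. The mean log2 level changed by -0.46 from day 7 to day 10, within the limit of 0.5. That low log2 mean came from the 2 shallow libraries, and the deep replicate 3 stood above each day 7 library.

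Just inside the threshold were G2735 and G4240, each with a control rise of 1.00 on the log2 scale. The second identifier of G2735 is shared by 2 genes, so its reads could be divided. Just outside were G21896 and G1496, also at 1.00 when rounded (0.9991 and 0.9984). The limit therefore divides genes with nearly equal steps. A further 2 genes had the required shape but too few UMIs on day 7.

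Many members were thinly counted on day 10. The median member had 22 UMIs over the 2 shallow control libraries and 63 in the deep replicate 3, and 23 members had 10 or fewer over the shallow pair. Measured from replicate 3 alone, 96 of the 127 genes rose by 1 or more in control, and from replicates 1 and 2 alone 123 did. These libraries made up the day 10 mean that chose the genes, so both counts are a description and not a check. Chosen anew with only replicate 3 for control day 10, the rule found 155 genes, which included 86 of the 127.

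The UV time course did not enter the rule, and it asked whether the same genes rose late under UV. UV counts did enter the minimum of 500 UMIs, so a thinly counted gene could pass it through a high UV day 13 level, and 84 of the 127 genes reached it on control libraries alone. From day 10 to day 13 of UV culture, 106 of the 127 genes (83.5%) rose in edgeR's quasi-likelihood test at an adjusted p under 0.05, in a fit of the 9 UV libraries, against 9.54% of all 16996 genes tested. The share was 9.60% among genes with at least 500 UMIs, the minimum that every member had to meet. All 127 were tested. None fell, with 0 lower at an unadjusted p under 0.05 in edgeR and 0 lower at an adjusted p under 0.05 in DESeq2 and limma-voom, while 11.8% of all genes (13.3% of those with at least 500 UMIs) did. The median change of the members was 0.98 on the log2 scale (quartiles 0.73 and 1.495), against -0.005 over all genes tested. At least 2-fold rises passed in 62 members, and in 608 of all 16996 genes tested. With the whole rule applied to the control libraries alone, so that no UV count entered it, 88 genes met it, of which 84 were among the 127. Of these 88, 79 (89.8%) rose from UV day 10 to day 13 and 0 fell, against 9.30% and 14.8% of the 12243 genes with at least 500 control UMIs.

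The replicates were also compared gene by gene. In 108 of the 127 genes (85.0%) each UV day 13 library was above each UV day 10 library, which held for 16.6% of the 14399 genes with at least 500 UMIs. By group means, 37 members had the full late shape in the UV arm, with a day 7 to day 10 change under 0.5 in size and a later rise of 1 or more, as did 0.826% of those genes. With the deep UV day 10 library alone 90 members rose, and with the shallow pair alone 92. Of the 106 genes, 76 rose in both of these fits. Of the 106 genes, 75 passed in all 19 alternative fits of the UV libraries. Among the 19, the fit with the shallow pair alone and the fit without UV day 10 replicate 3 are the same fit.

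**Figure D1:**
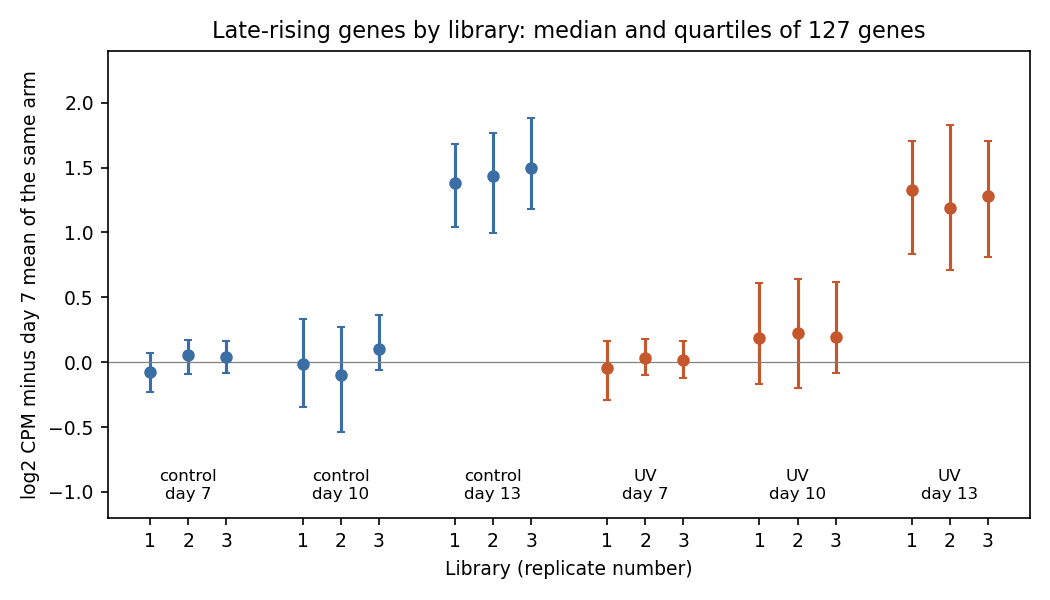
Median over the 127 late-rising genes (points) with the lower and upper quartile over genes (bars) in each of the 18 libraries, as log2 CPM minus the day 7 mean of the same arm. The day 13 medians lie between 1.38 and 1.497 in control and between 1.19 and 1.33 in UV libraries, above every day 7 and day 10 median.

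Library by library, the median member stood 0.19, 0.23 and 0.20 above the UV day 7 mean in UV day 10 replicates 1, 2 and 3 on the log2 scale. It stood 1.33, 1.19 and 1.28 above that mean in the UV day 13 replicates. The median thus differed little between the shallow and deep UV day 10 libraries. Single genes could differ more, such as G35457 with 9.53 and 9.19 CPM in the shallow pair and 4.26 CPM in the deep library. In control, where the rule set the level, the day 10 medians were -0.02, -0.10 and 0.10. The summed share of the members in all UMIs was 0.229% ± 0.00802, 0.262% ± 0.00217 and 0.581% ± 0.0381 on days 7, 10 and 13 under UV (SD, n = 3 each).

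By edgeR's fitted change, the largest UV rises from day 10 to day 13 were those of G10667 and G32984. By group means of log2 CPM the largest was that of G35066, at 3.14, which rested on 2, 0 and 17 UMIs on UV day 10 and had a fitted change of 2.4998 (edgeR adjusted p 1.12e-05). G10667 had 1.79, 1.84 and 1.11 CPM in the UV day 10 replicates and 21.1, 8.98 and 17.7 CPM in the UV day 13 replicates. The groups did not overlap, and the log2 change was 3.45 (SE 0.40, edgeR adjusted p 1.77e-07). G32984 had 1.19, 3.06 and 4.08 CPM on UV day 10 and 25.2, 33.5 and 17.5 CPM on UV day 13. It was likewise separated, with a log2 change of 2.96 (SE 0.30, edgeR adjusted p 3.14e-08). Its control cultures spread from 21.0 to 47.0 CPM on day 13, a range that holds 2 of the 3 UV values. On day 7 G32984 stood at 1.02, 2.33 and 2.56 CPM in UV libraries and at 2.76, 4.83 and 3.34 CPM in control libraries.

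The members with the most UMIs, and so the smallest counting error, were G27366 and G4891, with 29373 and 25908 UMIs over all libraries. G27366 went from 288, 364 and 266 CPM on UV day 10 to 608, 542 and 506 CPM on UV day 13, a log2 change of 0.87 (SE 0.12, edgeR adjusted p 2.69e-06). Each day 13 library was above each day 10 library. G4891 went from 230, 254 and 193 CPM to 428, 291 and 419 CPM, a log2 change of 0.77 (SE 0.13, edgeR adjusted p 9.08e-05). Its day 13 replicate 2 was nearer to the day 10 libraries than to the other day 13 libraries. Among the 64 members at or above the median total of 1154 UMIs, 58 rose in the UV arm, and among the 63 below it 48 did.

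**Figure D2:**
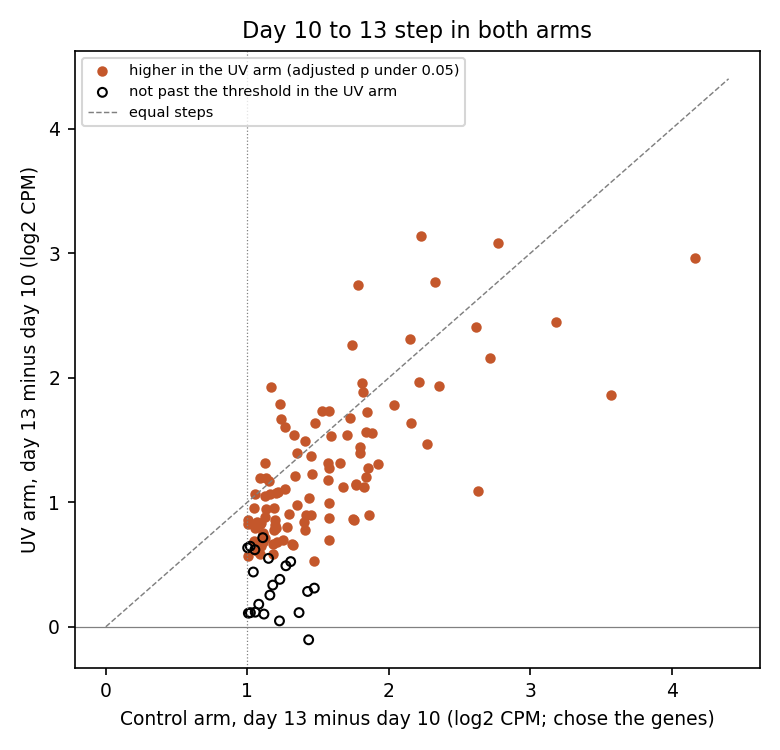
Day 10 to day 13 change in log2 CPM of each of the 127 genes, in control cultures (horizontal, used to choose the genes) and UV cultures (vertical), with filled points for the 106 genes that rose in the UV arm at an edgeR adjusted p under 0.05. All but 1 gene lie above 0 on the vertical axis, and 23 lie above the line of equal steps.

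The size of the step varied together in both arms. Over the 127 genes the control and UV steps had a Pearson r of 0.71 and a Spearman rho of 0.68, given as a description across genes, which share libraries, a harvest day and a low limit on the control step. Among the 64 genes with a control step at or above the median, 60 rose in the UV arm, and among the other 63, 46 did. The UV step was above the control step in 23 genes. As the control steps chose the genes, nothing is read from that count.

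**Figure D3:**
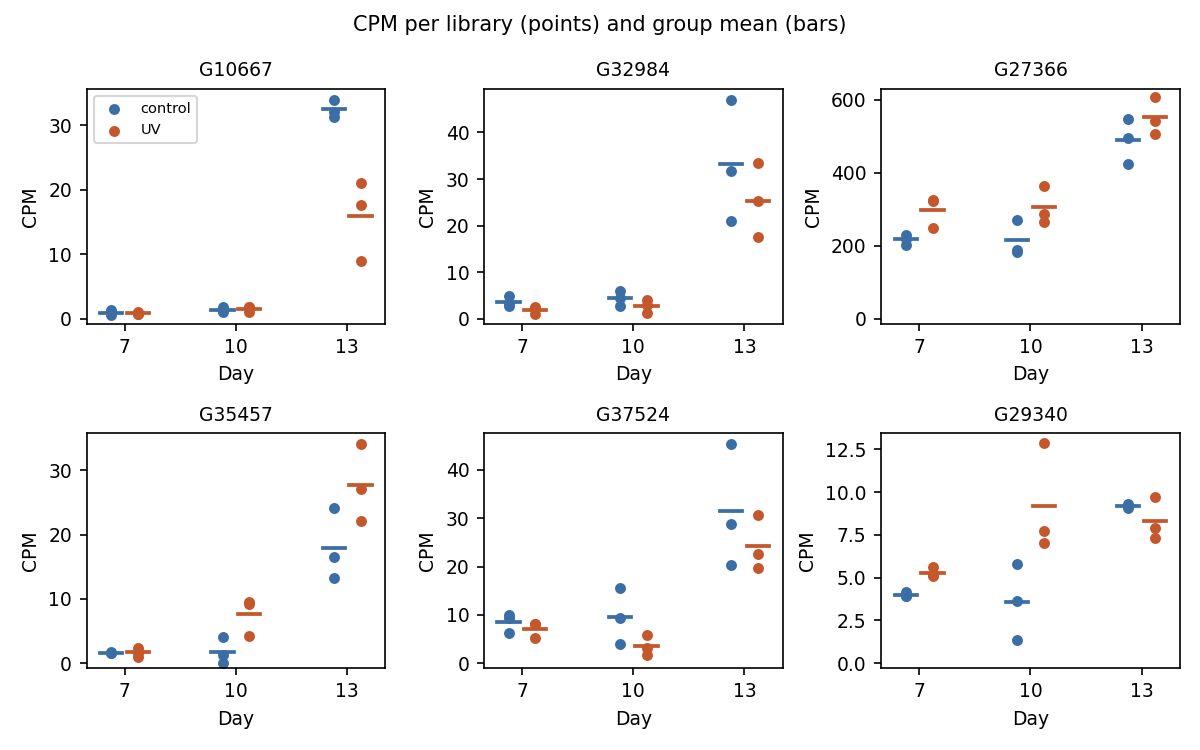
CPM of 6 late-rising genes in each library (points) with group means (bars), by day, for control and UV cultures. G10667, G32984 and G27366 rose after day 10 in both arms. G35457 was already raised on UV day 10, and G29340 stood near its day 13 level on UV day 10. G37524 had its lowest UV mean on day 10, from 3, 5 and 31 UMIs, and its UV day 7 and day 10 libraries overlapped.

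A minority of genes did not pass the threshold for a rise after day 10 under UV. By edgeR's fitted change, 124 of the 127 were positive and 3 negative. The lowest changes were those of G37209 and G29340, at -0.11 (SE 0.30, edgeR adjusted p 0.850) and -0.05 (SE 0.25, edgeR adjusted p 0.966) on the log2 scale. G37209 had 4.76, 3.68 and 8.15 CPM on UV day 10 and 4.15, 5.31 and 8.38 CPM on UV day 13. Its groups overlapped, and replicate 3 was the highest on both days. G29340 had 5.11, 5.64 and 5.13 CPM on UV day 7, then 7.74, 12.9 and 7.04 CPM, and finally 9.69, 7.33 and 7.89 CPM, so its day 10 libraries were already near the level of day 13. From day 7 to day 10 its log2 change was 0.66 (SE 0.27, edgeR adjusted p 0.0498). The second identifiers of both genes are each shared by 2 genes, so reads could be divided, and the effect on their values was not tested.

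From day 7 to day 10 the UV arm tested the other part of the pattern, the flat start. In edgeR's quasi-likelihood test 26 of the 127 genes (20.5%) rose and 4 (3.15%) fell, against 19.3% and 20.1% of all genes tested (21.2% each among genes with at least 500 UMIs). The share that rose was near the background, and the share that fell was below it. The median change was 0.19 on the log2 scale (quartiles -0.15 and 0.55), against 0.05 over all genes. All UV day 10 libraries were above all UV day 7 libraries in 35 members (27.6%) and below them in 5 (3.94%), against 25.1% and 23.5% of the genes with at least 500 UMIs. By group means 85 members changed by less than 0.5, 34 rose by 0.5 or more and 8 fell by 0.5 or more. These were 77, 41 and 9 with the deep and 78, 38 and 11 with the shallow UV day 10 libraries alone. The shares of all genes within these limits were not counted, so nothing about the members is read from these counts. The 26 rises depended on the libraries, with 14 from the deep UV day 10 library alone, 15 from the shallow pair alone, 17 without UV day 7 replicate 2 and 13 without UV day 7 replicate 3. Of the 26 genes, 5 rose in both the deep and the shallow fit.

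The largest early rises were those of G35457 and G31670. G35457 had 1.02, 1.56 and 2.45 CPM on UV day 7, then 9.53, 9.19 and 4.26 CPM, and finally 27.1, 34.1 and 22.2 CPM on UV day 13. The 3 days did not overlap, with a log2 change of 1.64 (SE 0.38, edgeR adjusted p 0.00116) in the first step and 2.13 (SE 0.25, edgeR adjusted p 1.98e-07) in the second. With the deep UV day 10 library alone the first step was 1.03 with an edgeR adjusted p of 0.0861. G31670 had 1.02, 1.17 and 2.10 CPM, then 4.76, 4.90 and 3.71 CPM, then 13.8, 15.03 and 15.3 CPM. Its first step was 1.29 on the log2 scale (SE 0.37, edgeR adjusted p 0.00584), which did not pass with the deep library alone (1.09, edgeR adjusted p 0.0657). Its control day 10 values of 0, 8.70 and 3.60 CPM spanned a wider range than its UV day 10 values.

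The largest fitted early fall was that of G23392, which is named although its groups overlapped and was chosen after its values were seen. It had 4.09, 10.5 and 8.74 CPM on UV day 7 and 6.55, 4.90 and 3.71 CPM on UV day 10, with UV day 7 replicate 1 below 2 of the day 10 libraries. Its log2 change was -0.98 (SE 0.29, edgeR adjusted p 0.00879), and it lost significance in 4 of 19 alternatives. Among these 4, the fit with the shallow UV day 10 pair alone and that without UV day 10 replicate 3 are the same fit. Among genes whose groups did not overlap, the largest falls were those of G22483 and G28571. G22483 went from 10.2, 8.75 and 9.44 CPM on UV day 7 to 5.36, 4.90 and 6.49 CPM on UV day 10, and then to 14.96, 12.3 and 13.1 CPM. The early fall was -0.65 on the log2 scale (SE 0.24, edgeR adjusted p 0.0318), and it lost significance in 8 of 19 alternatives. G28571 went from 32.7, 38.9 and 41.0 CPM to 29.8, 23.9 and 28.2 CPM and then to 52.9, 44.2 and 57.4 CPM. Its early fall was -0.51 (SE 0.15, edgeR adjusted p 0.00769), and it lost significance in 1 of 19 alternatives, without UV day 7 replicate 3.

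**Figure D4:**
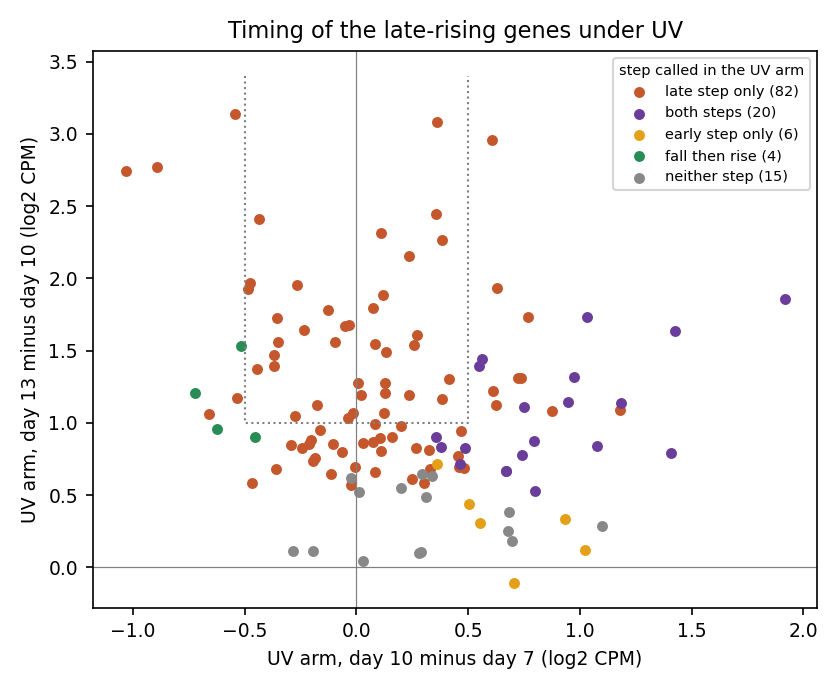
Change in log2 CPM of each late-rising gene in the UV arm from day 7 to day 10 (horizontal) and from day 10 to day 13 (vertical), coloured by the steps that passed edgeR's adjusted p threshold of 0.05. The dotted lines mark the limits that the rule set in the control arm, and 37 of the 127 genes lie within them.

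By the steps that passed under UV, the 127 genes fell into 5 sets. The share of all genes in each set was not counted, so the split is a description of the members. The largest, 82 genes, rose in the later step and passed in neither direction in the earlier one, with median steps of 0.07 and 1.17 on the log2 scale. A further 20 genes rose in both steps, with medians of 0.77 and 0.89. Another 6 rose in the earlier step and did not pass in the later one (medians 0.63 and 0.32), and 4 fell and then rose (medians -0.57 and 1.08). The remaining 15 passed in neither step, of which 8 rose from day 7 to day 13. In the same order the sets held 82, 6, 8, 2 and 29 genes with the deep UV day 10 library alone and 80, 9, 6, 3 and 29 with the shallow pair alone, so the set that rose in both steps was smaller in each. Both steps share the day 10 libraries, so a low or high day 10 value moves them in opposite directions. The 15 genes had a median of 668 UMIs in all, against 1191.5 in the set of 82, and a smaller median control step (1.15 against 1.44).

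**Figure D5:**
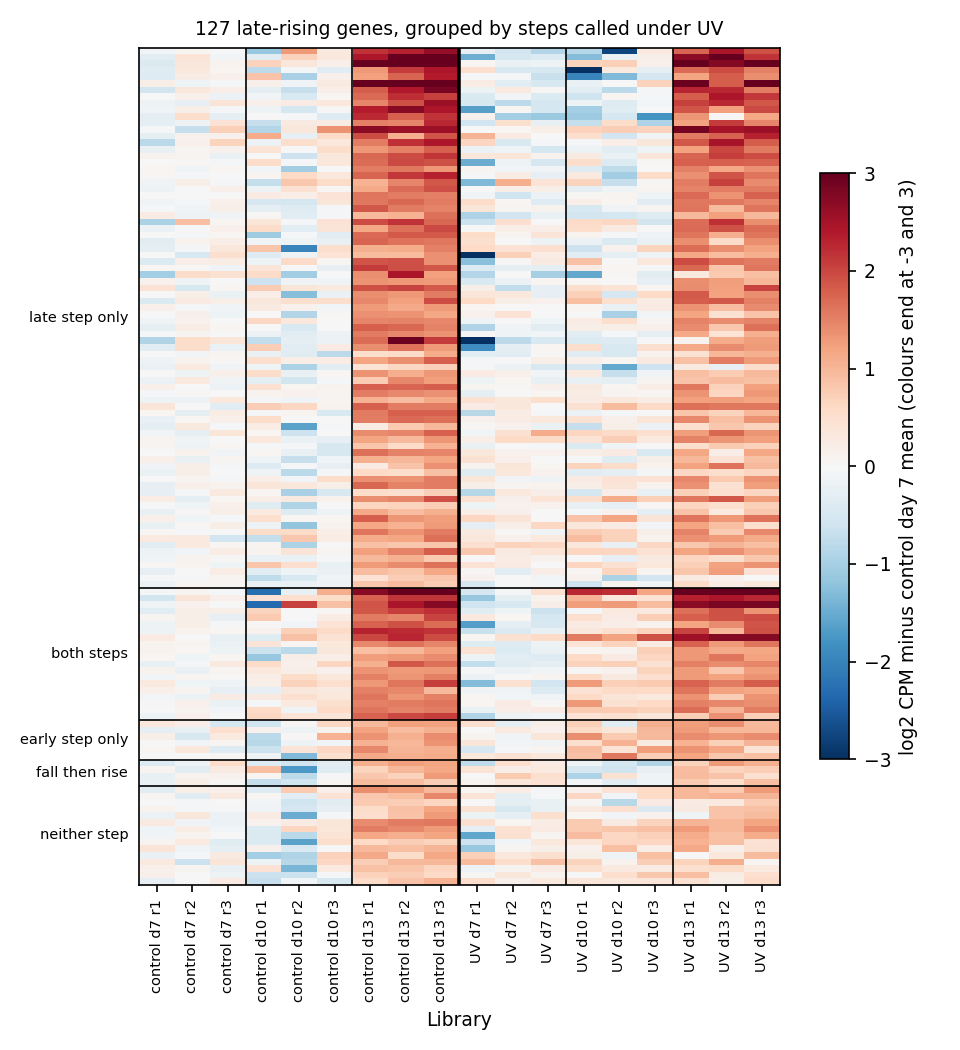
Log2 CPM minus the control day 7 mean for each of the 127 genes (rows) in the 18 libraries (columns; d is day, r is replicate), grouped by the steps that passed under UV and ordered within each set by the UV day 10 to day 13 change. Day 13 columns are raised in both arms in nearly all rows, and single dark blue cells on day 7 and day 10 lie mostly in shallow libraries.

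The comparison of day 13 with day 7 does not contrast the day 10 libraries, although they are in the same fit and share its estimate of the spread. From day 7 to day 13 under UV, 115 of the 127 genes (90.6%) rose in edgeR's quasi-likelihood test, against 28.5% of all genes tested and 29.5% of those with at least 500 UMIs. None fell in edgeR, DESeq2 or limma-voom, with 0 lower at an unadjusted p under 0.05 in edgeR, against 26.5% of all genes and 27.7% of those with at least 500 UMIs. Of the 88 genes found on control libraries alone, 81 (92.0%) rose and 0 fell, against 29.6% in each direction of the genes with at least 500 control UMIs. The median change was 1.23 on the log2 scale (range -0.06 to 4.19), against 0.06 over all genes. At least 2-fold rises passed in 79 members, and in 1402 of all 16996 genes tested. Each UV day 13 library was above each UV day 7 library in 113 genes (89.0%), against 32.0% of the genes with at least 500 UMIs. Of the 115 genes, 102 passed without any 1 of the 9 UV libraries.

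The authors' deposited table, made with DESeq2 per the file headers, listed all 127 genes. On UV day 13, 96 of them were higher than on UV day 10 at an adjusted p under 0.05 in the authors' deposited table, against 5.81% of its 20313 genes, and all 96 were among the 106 found here. The authors' deposited table had 15 members higher (11.7% of its genes) and 3 lower (15.8%) from UV day 7 to day 10. For UV day 13 over day 7 the authors' deposited table had 107 members higher, against 18.6% of its genes.

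Genes that rose in both control steps, by 0.5 or more and then by 1 or more with the same day 7 minimum, numbered 151 and serve as the nearest pattern. Under UV, 118 of them (78.1%) rose from day 7 to day 10 in edgeR's quasi-likelihood test, against 26 of the 127 late-rising genes (20.5%). The share over all genes tested was 19.3% (21.2% of those with at least 500 UMIs), near that of the late-rising genes. All 151 rose from day 10 to day 13, against 106 of the 127 (83.5%) and 9.54% of all genes tested (9.60% with at least 500 UMIs). Their median UV steps were 1.23 and 1.69 on the log2 scale, against 0.20 and 0.98 by the same group means. This sets the values side by side, and the difference between the 2 lists was not tested.

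UV was also compared with control on each day, in 1 fit of all 18 libraries. The control libraries in this contrast chose the genes for low day 10 and high day 13 levels, so the counts are listed and nothing is read from them. On day 7, 0 of the 127 genes passed in edgeR (0.198% of all 18196 genes were higher and 1.72% lower). At an unadjusted p under 0.05, 10 were higher and 6 lower, and DESeq2 called 2 of the 32 members to which it gave an adjusted p. On day 10, 4 were higher under UV and 0 lower in edgeR (0.648% and 1.88% of all genes), with 1 lower at an unadjusted p under 0.05. DESeq2 called 0 lower among the 69 members to which it gave an adjusted p. The 4 higher in edgeR were G37323, G27366, G24475 and G11597. On day 13, 1 was higher, G37323, and 10 were lower (1.54% and 0.385% of all genes), with a median difference of -0.17 on the log2 scale.

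The day 10 to day 13 step was compared between arms in the same fit and under the same restriction. In edgeR 0 members had a larger step under UV, with 0 at an unadjusted p under 0.05, and 5 had a smaller one (2.28% and 0.291% of all genes tested). By group means the most positive differences were those of G37524 and G35066, and neither passed. G37524 had 1.79, 3.06 and 5.74 CPM on UV day 10 and 19.7, 30.6 and 22.7 CPM on UV day 13, against 15.5, 4.01 and 9.28 CPM and then 20.3, 28.9 and 45.4 CPM in control. Its control day 10 libraries overlapped with the UV ones, and the fitted difference was 0.67 with an edgeR adjusted p of 0.761. G35066 had 1.19, 0 and 3.15 CPM on UV day 10, and a fitted difference of 0.39 with an edgeR adjusted p of 0.867. That difference was -0.30 with the deep and 2.42 with the shallow day 10 libraries alone (edgeR adjusted p 0.928 and 0.350).

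The most negative differences by group means were those of G35457 and G36538, and neither passed. The fitted difference of G35457 was -0.47 with an edgeR adjusted p of 0.810, and it was 0.53 with the deep and -2.95 with the shallow day 10 libraries alone (edgeR adjusted p 0.838 and 0.123). G36538 had 11.6, 28.7 and 15.6 CPM on control day 13 against 3.60, 7.70 and 8.63 CPM on UV day 13, and the groups did not overlap. Its fitted difference in step was -1.58 with an edgeR adjusted p of 0.425. On UV day 7 replicate 1 it had 0 UMIs.

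The members were also set beside their own median profile over all 18 libraries. Of these libraries 9 are the controls that chose the genes, so a high likeness was built in and nothing is read from it. The correlation of each gene's log2 CPM with the median profile of the 127 genes had a median of 0.88 and ran from 0.46 to 0.98, and 51 members were above 0.9, as were 85 of the 14272 other genes with at least 500 UMIs. Over the 9 UV libraries alone the median was 0.87 (range -0.13 to 0.99), with 48 members (37.8%) above 0.9, against 2.71% of the other genes. The members made up the median profile and the other genes did not, so nothing is read from this contrast either. The other genes most like that profile were G1026 (r = 0.977) and G35820 (r = 0.976), over 18 libraries. G1026 stood higher by 0.73 on control day 10 than on day 7 and so missed the flat start, and G35820 changed by 0.64 from control day 10 to day 13 and so missed the later limit. G1026 had 48.2, 47.8 and 55.8 CPM on UV day 10 and 249, 248 and 209 CPM on UV day 13, and no library of the first group came near the second.

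A second identifier was given for 124 of the 127 (97.6%), against 99.0% of the genes with at least 500 UMIs, and it was shared with another gene for 7 (5.51%), against 5.48%. No 2 members shared one. Summed over members, UMIs per read were 0.739 to 0.762 on day 7, 0.784 to 0.807 on day 13, 0.886 to 0.895 in the shallow and 0.751 to 0.754 in the deep day 10 libraries, which followed the libraries as a whole. The members had a median SD between replicates of 0.257 on UV day 13 and 0.277 on UV day 10 on the log2 scale, against 0.146 and 0.202 over all genes with at least 500 UMIs, and this difference was not tested.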

How the data were processed

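MARS-seq2.0 libraries were made from total RNA, per the labels' protocols. The authors deposited UMI counts and read counts per gene, neither normalized. The authors' deposited table of DESeq2 results holds adjusted p-values and log2 fold changes, per the file headers. The sources used here name no aligner, counting tool, genome build or annotation.

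Log2 CPM for the rule used edgeR 4.0.16 (R 4.3.3), TMM on the 14399 genes with at least 500 UMIs and a prior count of 2. If over 200 genes had met the rule, the 200 largest steps would have been kept. The members and gene choices were made with earlier results of these data known. Tests were edgeR's quasi-likelihood F-test (robust, two-sided) on UMI counts, filterByExpr with a minimum count of 10 and total of 15, and Benjamini-Hochberg adjustment over all genes tested. UV steps used the 9 UV libraries alone, and UV against control used all 18. Genes were named by rule: the largest and smallest steps, those past the threshold with at least 5 UMIs on average and separated groups, the highest UMI totals and the closest profiles. Where fewer than 6 were counted, others were named after their values were seen. Alternatives used DESeq2 1.42.0, limma 3.58.1, other scalings, read counts, a replicate block and left-out libraries. The test was checked on simulated data. No libraries were identical (0 duplicated columns), and UMI depth limits precision.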

Additional observations from a re-analysis of the deposited data

Results flagged for a closer look

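The day 10 to day 13 step differed between the arms for 5 of the 127 genes by the test of that difference in edgeR's fit of all 18 libraries. In each of the 5 the step was smaller under UV. The control step of each gene had been part of the rule that chose it, so a smaller UV step was favoured by the choice, and how much of each value this makes up was not tested.

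G34818 had a difference of -1.28 on the log2 scale (SE 0.29, edgeR adjusted p 0.00698). Under UV it stood at 13.7, 13.5 and 13.7 CPM on day 10 and later at 14.7, 11.9 and 16.0 CPM, while control libraries went from 6.37, 10.0 and 7.48 to 15.6, 19.5 and 22.2 CPM. It was thus level under UV, and it lost significance in 2 of 17 alternatives.

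G23260 had a difference of -1.18 (SE 0.30, edgeR adjusted p 0.0182). It rose in both arms, to 17.2, 15.2 and 19.2 CPM on UV day 13 and to 28.9, 33.7 and 34.0 CPM on control day 13, and the day 13 groups did not overlap. It lost significance in 4 of 17 alternatives.

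G24475 had a difference of -0.996 (SE 0.26, edgeR adjusted p 0.0223). It stood at 21.4, 31.3 and 18.2 CPM on UV day 10 against 8.19, 13.4 and 14.1 CPM in control, and the arms overlapped on day 13. It lost significance in 4 of 17 alternatives.

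G11597 had a difference of -0.97 (SE 0.27, edgeR adjusted p 0.0378), with 16.1, 22.7 and 28.0 CPM on UV day 10 against 10.0, 10.0 and 15.4 CPM in control. It lost significance in 10 of 17 alternatives. G3677 had a difference of -0.93 (SE 0.26, edgeR adjusted p 0.0459), with 16.9, 26.8 and 16.8 CPM on UV day 13 against 35.2, 40.7 and 43.4 CPM in control. It lost significance in 13 of 17 alternatives. All 5 kept their direction in each of these alternatives.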

How the results depend on the processing

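The rise of the members under UV from day 10 to day 13 kept its direction in the 23 alternatives run. Its count stayed within 1.5 times the main 106 (79 to 154 genes). Both limits were over other member lists in the main fit: 79 of 88 from control libraries alone and 154 of 243 from total-count scaling. The share was smaller in the 243, but 115 of the 127 rose with that scaling in the UV fit. The late shape also stayed within 1.5 times its main count (33 to 52 genes in 13 alternatives). For both, using the shallow UV day 10 pair alone equals leaving out UV day 10 replicate 3. The replicate block gave 105 genes for the UV day 10 to day 13 step, and same-numbered UV libraries did not deviate together (9 correlations of -0.05 to 0.08). Over all groups, 3 of 45 correlations were above 0.1 (range -0.11 to 0.29), the highest between the deep day 10 libraries of both arms. Same-numbered samples are treated as unpaired, although on day 10 replicates 1 and 2 of both arms also share low depth and more UMIs per read. The replicate block cannot account for that split, which is seen on day 10 alone. Total-count scaling moved the median of all genes to 0.15, 0.15 and 0.32 for the UV steps from day 10 to 13, day 7 to 10 and day 7 to 13, against -0.005, 0.05 and 0.06, and the median of the members to 1.14, 0.30 and 1.49.

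The rule found 243 genes with total-count scaling (108 shared with the 127), 307 without a minimum on UMIs (122 shared), 147 with TMM on all genes with at least 1 UMI (122 shared), and 118 to 145 without any 1 control library. For UV day 7 to day 10, genes called higher were 12 with DESeq2, 14 with the deep and 15 with the shallow day 10 libraries, and 13 to 33 without any 1 library. Genes called lower were 2 with total-count scaling, 1 with DESeq2, 2 with the deep library, 1 to 5 without any 1 library, 2 over the 88 genes found on control libraries alone, and 21 over the 243 genes found with total-count scaling. Of those 243, 175 rose from UV day 7 to 13, also in the main fit. Both lists were added after seeing the data, as were the day 10 versions of the 5 sets. With the deep library alone, day 10 has 1 library per arm, which is assumed to vary like the other groups.

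For UV against control, day 7 gave 3 genes with total-count scaling, 4 without a low-count filter, 2 with DESeq2, 2 with the replicate block and 0 to 2 without any 1 library. Day 10 gave 1 with the deep and 0 with the shallow libraries (main edgeR fit 4), and 1 to 3 without any 1 library. Day 13 gave 20 without a low-count filter, 4 without UV replicate 2, 7 without control replicate 2, and 4 to 15 over all libraries left out. The difference in step gave 2 genes with the deep, 2 with the shallow libraries and 2 to 5 without any 1 library, the last added after seeing the data.

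Some changes turned direction and never passed. For UV day 10 to day 13, G37209 was 0.0542 with total-count scaling, 0.0308 with the replicate block, 0.50 with the shallow libraries and -0.41 to 0.50 without any 1 library. G29340 was 0.11 with total-count scaling, 0.0285 with read counts, 0.22 with the deep library and -0.32 to 0.18 without any 1 library. The step differences of G35066 and G35457 were -0.30 and 0.53 with the deep libraries, 2.42 and -2.95 with the shallow ones, and 0.07 to 2.17 and -2.40 to -0.18 without any 1 library. The cause was not tested in any of these. Depth limits the day 10 values, where members had a median of 22 UMIs over the shallow control pair and 31 over the shallow UV pair.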
